A study of Mus musculus with 4 samples.

Results

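The genes described here are 10 genes of cystine import and of the antioxidant response driven by the transcription factor NRF2: Slc7a11, Gclc, Gclm, Txnrd1, Srxn1, Prdx1, Hmox1, Nqo1, Nfe2l2 and Keap1. They were taken by symbol from the 32285 features of the deposited count matrices, and all 10 were found. They were selected on their UMI counts in these matrices, as levels over cell classes and as differences between the groups. The counts and differences below therefore describe them, and no test was made on them. The study injected recombinant mouse IL-27, a cytokine of the IL-12 family, into mouse ovarian tumours and profiled single CD45-selected cells at day 14.

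There were 2 groups of B6C3F1 mice aged 6 to 8 weeks, all bearing subcutaneous tumours of OV2944-HM1, a mouse ovarian cancer line. The IL_27 group received 100 ng of the cytokine per mouse inside the tumour every other day from the day of implantation. The control group received vehicle on the same schedule. In both groups CD45-positive cells were taken with beads. For each group 2 entries were registered, yet all its cells sit together in 1 matrix that does not say which entry a cell came from. Each group is therefore 1 sample. The number of mice behind each matrix is not given in the sources used here. No difference between the groups therefore has a replicate check, and no p-value is given. All intervals are at the 95% level and cover counting error only. The labels call the cells lymphocytes. By their markers, however, neutrophils were the commonest class, with 42.9% of the cells kept in the IL_27 matrix and 49.3% in the control matrix.

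NRF2, the product of Nfe2l2, is held at a low level in resting cells by the adaptor KEAP1, which passes it on for degradation. Oxidants and electrophiles release it, and with small MAF partners it binds antioxidant response elements near its target genes. Those targets supply cystine and glutathione, reduce thioredoxin and peroxiredoxins, break down heme and detoxify quinones. Slc7a11 is also a target of ATF4, the factor of the amino acid response, and Hmox1 is also turned on by heme and by heat shock. In neutrophils, which make superoxide with the NADPH oxidase, these systems limit damage from the cell's own oxidants.

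Short stretches of promoter are shown for 4 genes because each holds a core motif of one of these factors. RefSeq windows on GRCm38.p6 reached from 250 bases before to 50 bases after the start of transcription, and 8 of the 10 genes matched a window, while Hmox1 and Gclc had no entry. The antioxidant response core was searched as TGACNNNGC and the amino acid response core as TGATGNAA, each on both strands, and no window of these genes held both. The antioxidant core was in a window of 5 of the 8 genes (Gclm, Prdx1, Txnrd1, Nfe2l2 and Srxn1). The 8 genes had 10 windows in all, since Txnrd1 had 3, and 12.4% of all 32851 windows held the core. The amino acid core was in the window of 1 gene, Slc7a11, which held 2 matches. A match was found in 3.97% of all windows and 2 or more in 0.0700%. The matches stand in capitals and each line reads 5′ to 3′ on the strand of its gene.
Slc7a11 (chr3:50443633-50443699, minus strand): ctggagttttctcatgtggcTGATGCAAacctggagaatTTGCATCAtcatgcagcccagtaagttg
Gclm (chr3:122245403-122245451, plus strand): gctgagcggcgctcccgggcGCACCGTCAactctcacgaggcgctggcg
Prdx1 (chr4:116685446-116685494, plus strand): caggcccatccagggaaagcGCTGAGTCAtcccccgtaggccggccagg
Txnrd1 (chr10:82859094-82859142, plus strand): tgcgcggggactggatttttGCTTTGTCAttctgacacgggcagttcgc
The Slc7a11 line carries its matches on opposite strands, at 66 and 47 bases before the start. The Txnrd1 line comes from 1 of its 3 windows, and the others held no match. A match is a run of letters and not evidence of binding.

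The matrices held 10183 barcodes and 43868189 UMIs (unique transcript tags) in the IL_27 group, and 10784 barcodes and 54049661 UMIs in the control group. The median per barcode was 1847 UMIs in IL_27 and 2384.5 in control. After filtering, 9990 and 10617 cells were kept, and the median mitochondrial share was 0.606% in IL_27 and 0.356% in control. The 2 matrices shared 133 barcode sequences. Ptprc, which encodes CD45, was seen in 49.9% of IL_27 cells and 49.995% of control cells. Cells were put into 14 classes of at least 40 cells per matrix by the marker transcripts they carried, so a class name stands for a cell with those transcripts. Levels are given as CPM (counts-per-million, the UMIs of a gene scaled to the UMIs of its class in 1 matrix), and they were not compared between genes, because the kit reads 1 end of each transcript. A gene counts as higher or lower past the fold where its CPM ratio of IL_27 over control is at least 1.5 or at most its inverse, among genes with at least 20 UMIs over both matrices in the class. Such genes are called tested, which says only that the ratio was set against the fold.

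Slc7a11 encodes xCT, the transport subunit that brings cystine into the cell in exchange for glutamate, and most of its UMIs were in neutrophils. In neutrophils it stood at 3015 CPM in the IL_27 matrix and 1470 CPM in the control matrix, from 23914 and 19211 UMIs. The ratio was 2.05 (2.01 to 2.09). Neutrophils held 71.7% of all Slc7a11 UMIs of the kept cells in IL_27 and 76.4% in control, which is the largest share of any class in both matrices. Of the 10 genes, 4 were past 1.5-fold higher in neutrophils (Slc7a11, Gclc, Gclm and Txnrd1) and 0 lower. The background there was 10.9% of the 10539 genes tested higher and 8.49% lower, and the median log2 ratio was 0.57 over the 10 genes and 0.05 over all genes tested.

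The difference in neutrophils lay in the bulk of the cells. An Slc7a11 UMI was seen in 85.8% of IL_27 neutrophils and 76.5% of control neutrophils. After each cell was thinned to 1000 UMIs, the share was 82.2% of 3505 IL_27 neutrophils and 63.4% of 4656 control neutrophils, with 779 and 582 shallower cells left out. In tumour cells thinned alike, a class with little Slc7a11, the share was 1.90% in IL_27 and 1.49% in control. The median depth was 1594 UMIs in IL_27 and 2155 in control for neutrophils, and 44570 and 41787.5 for tumour cells. At that depth 50.1% of IL_27 neutrophils carried 3 or more Slc7a11 UMIs, against 21.8% of control neutrophils. The mean was 3.16 UMIs per cell in IL_27 and 1.53 in control, and the median 3 and 1. The whole distribution was shifted. The UMIs were spread over many cells, since in IL_27 the 805 neutrophils with the most were needed to hold at least as many as all the others together.

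**Figure D1:**
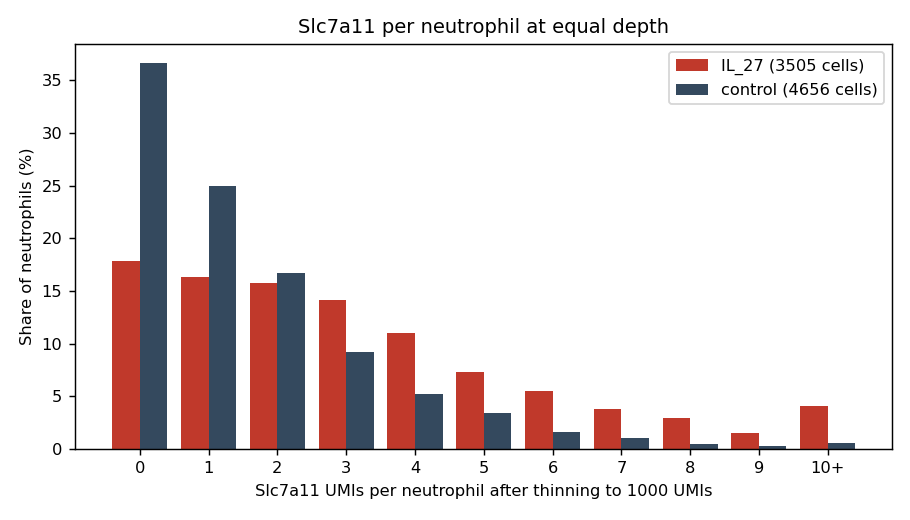
Share of neutrophils (y axis, percent) with each number of Slc7a11 UMIs (x axis, 10 or more pooled) after thinning to 1000 UMIs per cell, with IL_27 bars left of control bars. Cells with no Slc7a11 UMI made up a smaller share in IL_27, and cells with 3 or more UMIs made up 50.1% in IL_27 against 21.8% in control.

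Slc7a11 was higher in every neutrophil cluster compared. Clusters were computed without the 10 genes and their pathway lists, with only heat shock and housekeeping genes left in, and 5 of them held at least 200 neutrophils in each matrix. The lowest ratio was in the cluster led by Hspa1a, Hspa1b, Jun and Fos (genes of heat shock and of the immediate early response), with 1727 CPM in IL_27 and 966 CPM in control, a ratio of 1.79 (1.68 to 1.90). The highest was in the cluster led by Retnlg, Rdh12 and Pglyrp1, with 3474 CPM in IL_27 and 1466 CPM in control, a ratio of 2.37 (2.28 to 2.46). The level itself was highest in the cluster led by Il23a, Acp5 and Cxcl1, with 4084 CPM in IL_27 and 2110 CPM in control. All 5 clusters were thus past the fold, and so were the neutrophils of the remaining small clusters, at 1182 CPM in IL_27 and 617 CPM in control.

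**Figure D2:**
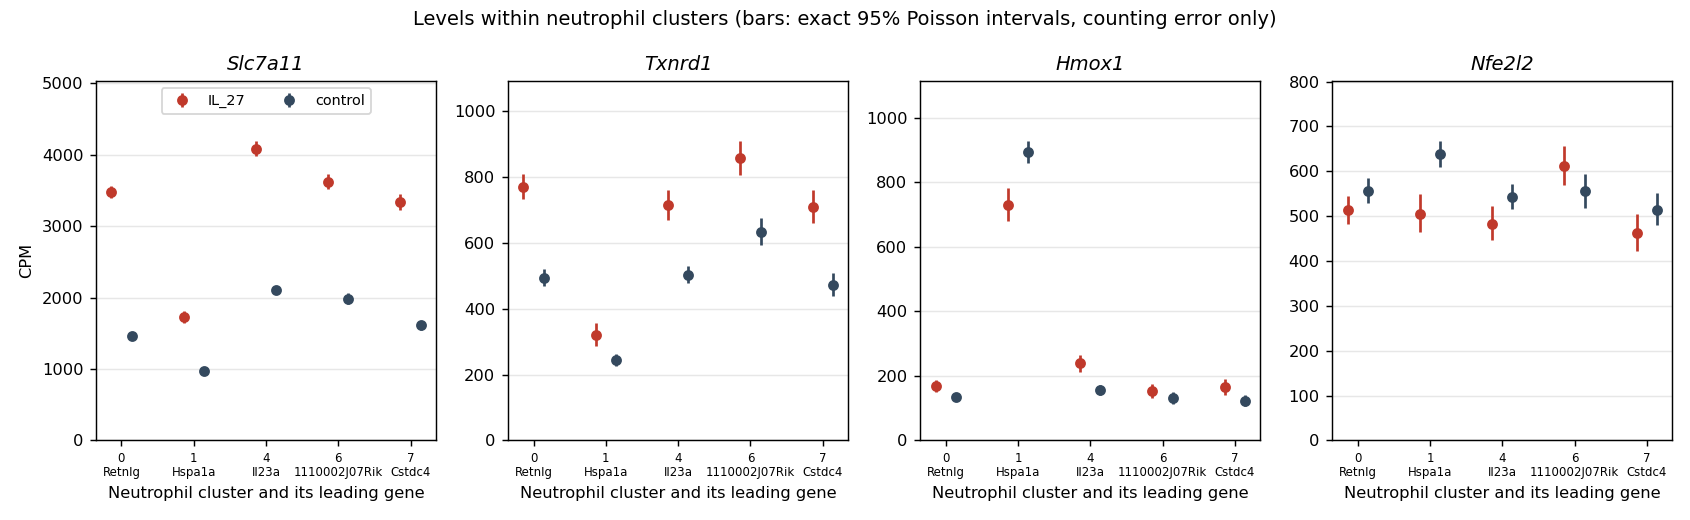
CPM of Slc7a11, Txnrd1, Hmox1 and Nfe2l2 (y axes) in the 5 neutrophil clusters (x axes, numbered by size over all cells), IL_27 points left of control points, with bars for the 95% counting interval. Slc7a11 and Txnrd1 were higher in IL_27 in all 5 clusters, whereas Hmox1 was lower only in the heat shock cluster, at 729 against 892 CPM.

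Within each matrix, neutrophils with more Slc7a11 UMIs also carried more Txnrd1. Cells were thinned to 1000 UMIs and Slc7a11 itself was taken out of the total. In IL_27 neutrophils Txnrd1 stood at 402 CPM in cells with no Slc7a11 UMI, 625 CPM with 1 or 2 and 825 CPM with 3 or more, and in control neutrophils the same 3 levels were 352, 443 and 674 CPM. Hmox1 ran the other way, at 391, 270 and 230 CPM in IL_27 and 537, 261 and 189 CPM in control. Slc3a2, which encodes the partner subunit that carries xCT to the membrane, varied little, at 506, 509 and 530 CPM in IL_27 and 325, 318 and 353 CPM in control. The summed heat shock list was lower in cells with more Slc7a11, at 13487, 8560 and 6747 CPM in IL_27 and 14750, 10593 and 8705 CPM in control. The part of heat shock or cell handling in these orders was not tested.

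Slc3a2 was not one of the 10 genes. In neutrophils it was at 485 CPM in IL_27 and 324 CPM in control, a ratio of 1.4993 (1.43 to 1.57), just short of the fold. It passed the fold in 0 of the 14 classes. Unlike Slc7a11 it was seen throughout, and its highest level was in the mast cell or basophil class, at 570 CPM in IL_27 and 414 CPM in control.

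Transcript length moved with the neutrophil ratios. When the genes tested there were cut into 5 equal groups by exon length, the median log2 ratio was −0.07, −0.03, 0.04, 0.11 and 0.19 from the shortest to the longest group. Slc7a11, with 13922 exonic bases, is in the longest group, of which 12.5% of genes were past the fold higher. In every other class, too, the median was higher in the longest group than in the shortest. It went from −0.22 to 0.25 both in mature dendritic cells and in other T cells. In the longest group 19.6% and 20.8% of genes were past the fold higher in these 2 classes. The part of length in the Slc7a11 ratios was not tested in any class.

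**Figure D3:**
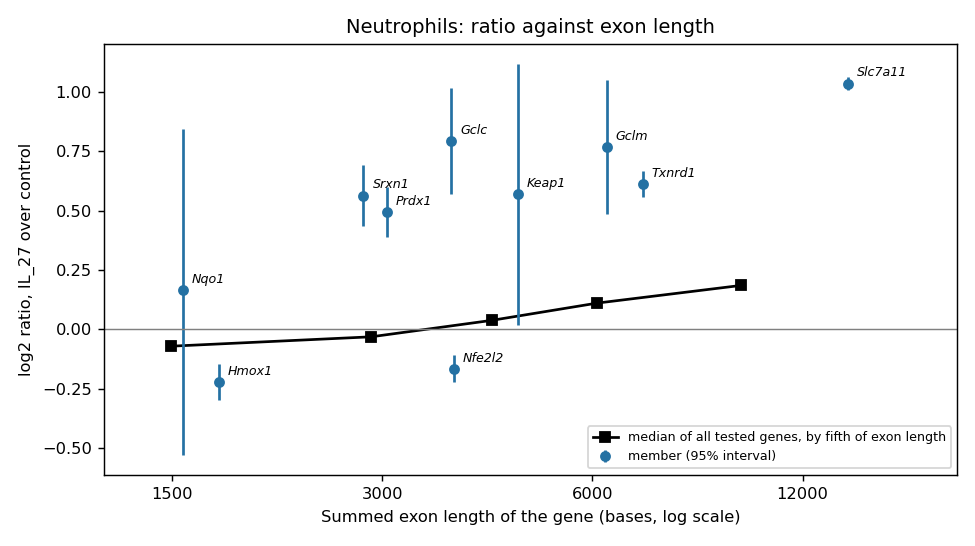
Ratio of IL_27 over control in neutrophils, on a log2 scale (y axis), against exon length in bases (x axis, log scale) for the 10 genes, each named. A line gives the median of each length group of the genes tested there. The line rises with length from a log2 of −0.07 to 0.19, and Slc7a11 lies above it at a ratio of 2.05.

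Outside neutrophils Slc7a11 was highest in other myeloid cells. Monocytes had 703 CPM in IL_27 and 269 CPM in control, a ratio of 2.62 (2.36 to 2.90). Macrophages led by Dcstamp and Mmp12 had 555 CPM in IL_27 and 326 CPM in control, a ratio of 1.70 (1.59 to 1.82). Neither interval reached 1. Mature dendritic cells had 365 CPM in IL_27 and 228 CPM in control, and the cDC2 class of conventional dendritic cells had 288 and 179 CPM, each a ratio of 1.60. Macrophages led by the complement genes C1qa, C1qb and C1qc had 259 CPM in IL_27 and 206 CPM in control, a ratio of 1.25 (1.08 to 1.45), short of the fold. The cDC1 class had 129 CPM in IL_27 and 14.8 CPM in control, a ratio of 8.70 (6.02 to 13), but 8 of its 164 IL_27 cells held at least as many of its 271 UMIs as the rest together. With classes taken from clusters the cDC1 ratio was 2.15 and that of C1q-led macrophages 1.995, both past the fold. But 1 cluster was the largest of both dendritic classes, with 65.8% of cDC1 and 52.2% of cDC2 cells. The cDC1 value by clusters thus mixes cDC1 with cDC2 and is no separate check on cDC1.

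Lymphocytes and cells that are not leukocytes had little. CD8 T cells, regulatory T cells (Treg) and other T cells had 28.1, 27.4 and 19.2 CPM in IL_27 and 21.2, 20.6 and 7.78 CPM in control. Tumour cells, recognised by keratin and other epithelial markers, had 12.6 CPM in IL_27 and 6.35 CPM in control, from 129 and 77 UMIs. NK cells, mast cells or basophils, and fibroblasts each had 10 UMIs or fewer per matrix. Fibroblasts had 9 UMIs in IL_27 and 0 in control, where the floor of 3 counts used for a count of 0 stands at 3.08 CPM. Among IL_27 classes the intervals of cDC2 and C1q-led macrophages overlapped, as did those of every neighbouring pair from CD8 T cells downward. In control the intervals overlapped from monocytes through mature dendritic cells and C1q-led macrophages to cDC2.

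Neutrophil marker transcripts were present in the other classes, so each class was also given the Slc7a11 level that its neutrophil marker RNA would carry at the neutrophils' own ratio. That value was 273 CPM in IL_27 and 135 CPM in control for C1q-led macrophages, so their measured 259 CPM in IL_27 was no higher than it. It was 318 and 149 CPM for Dcstamp/Mmp12-led macrophages, 165 and 87.7 CPM for cDC2, and 114 and 55.8 CPM for monocytes, all below the measured levels. For mature dendritic cells it was 57.7 CPM in IL_27 and 59.4 CPM in control, and for cDC1 61.6 and 28.3 CPM, which in control is above the 14.8 CPM measured. For Treg it was 34.1 CPM in IL_27 and 19.1 CPM in control, against 27.4 and 20.6 CPM measured, and for CD8 T cells 28.9 and 12.7 CPM, against 28.1 and 21.2 CPM measured. In fibroblasts, at 138 and 42.7 CPM, and in mast cells or basophils, at 216 and 141 CPM, the value was far above the level measured, so it overstates in at least some classes. The part of neutrophil RNA in the ratios of the other classes was not tested.

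**Figure D4:**
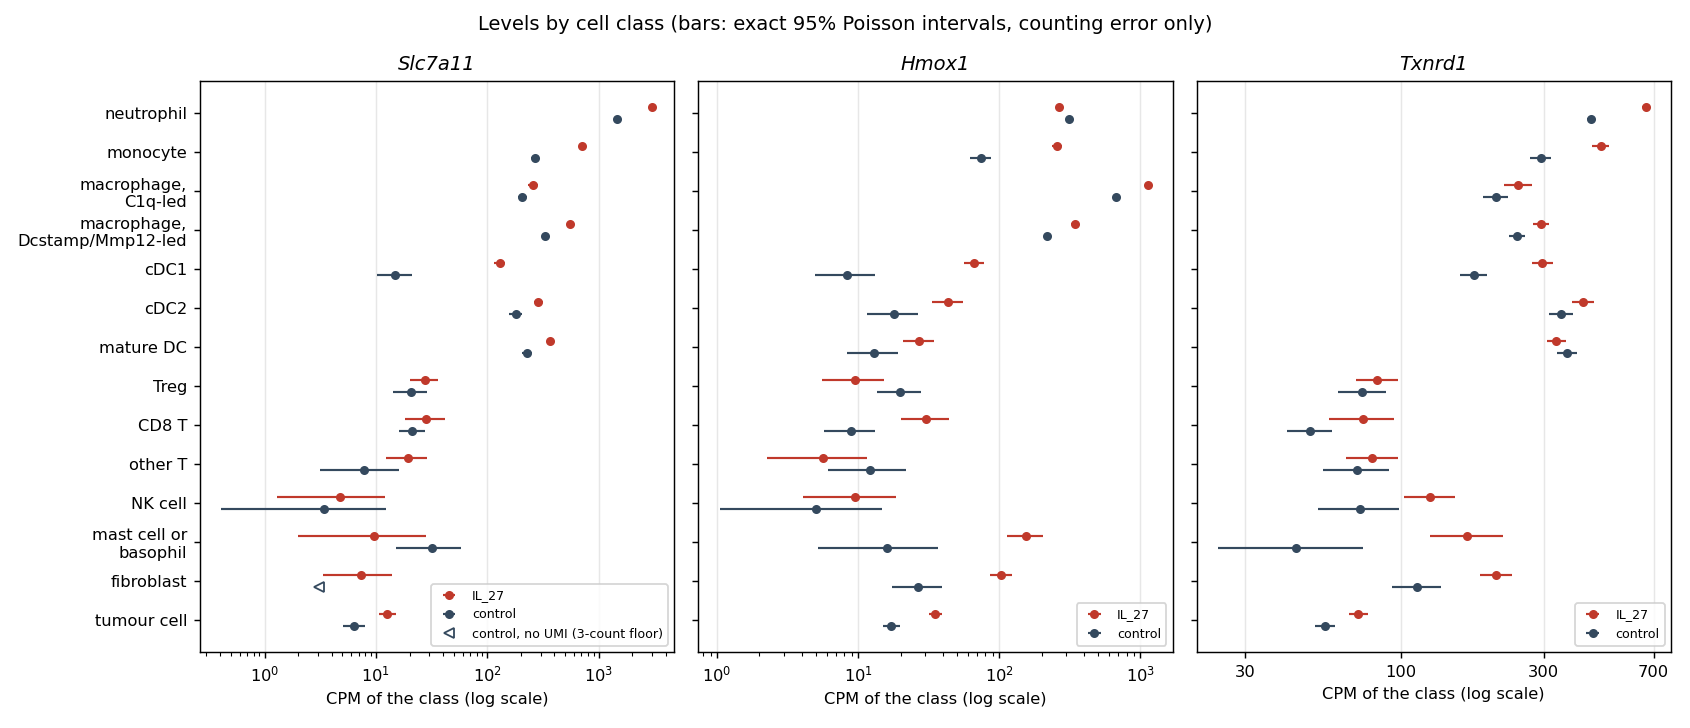
CPM (log axis) of Slc7a11, Hmox1 and Txnrd1 in the 14 classes, with IL_27 and control points and bars for the 95% counting interval. Slc7a11 peaked in neutrophils, at 3015 CPM in IL_27 and 1470 CPM in control, Hmox1 in C1q-led macrophages, at 1135 and 679 CPM, and Txnrd1 in neutrophils, at 660 and 431 CPM.

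Gclc and Gclm encode the catalytic and the modifier subunit of glutamate-cysteine ligase, the rate-limiting enzyme of glutathione synthesis, for which cystine supplies the cysteine. Both were higher in IL_27 monocytes. Gclm had 72.3 CPM in IL_27 and 16.2 CPM in control there, from 153 and 31 UMIs, a ratio of 4.46 (3.01 to 6.79). Gclc had 43.9 CPM in IL_27 and 14.1 CPM in control, a ratio of 3.11 (2.01 to 4.97). In monocytes 5 of the 9 genes tested were past the fold higher (Slc7a11, Gclc, Gclm, Txnrd1 and Hmox1) and 0 lower, where 7.72% of all genes tested were higher and 11.4% lower.

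In neutrophils Gclc stood at 42.7 CPM in IL_27 and 24.6 CPM in control, a ratio of 1.73 (1.48 to 2.03). Its ratio lay between 1.64 and 2.72 in the 5 clusters. Gclm stood at 26.7 CPM in IL_27 and 15.7 CPM in control, a ratio of 1.70 (1.40 to 2.07), but its clusters did not move together. They gave ratios of 2.49, 0.53, 0.65, 1.63 and 2.89, and the 2 below 1 had intervals that included 1. Gclc was past the fold in 6 of 14 classes, all higher in IL_27. These included C1q-led macrophages, at 57.4 CPM in IL_27 and 25.2 CPM in control, cDC1, at 33.3 and 13.9 CPM, and mature dendritic cells, at 70.4 and 42.1 CPM. In mature dendritic cells, however, 1 IL_27 cell held 34.8% of the 164 Gclc UMIs, and as a mean over cells the log2 ratio was −0.26.

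The highest Gclc level was in the mast cell or basophil class, at 234 CPM in IL_27 and 79.6 CPM in control. That class had 44 cells in IL_27 and 63 in control, and 2 IL_27 cells held at least as many of its 73 Gclc UMIs as the rest together. In tumour cells neither subunit was apart, with 30.4 CPM of Gclc in IL_27 and 32.6 CPM in control, and 41.6 CPM of Gclm in both.

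Txnrd1 encodes cytosolic thioredoxin reductase, which uses NADPH to keep thioredoxin reduced. In neutrophils it had 660 CPM in IL_27 and 431 CPM in control, a ratio of 1.53 (1.47 to 1.59), and a UMI was seen after thinning in 41.7% of IL_27 and 30.2% of control neutrophils. It was higher in all 5 clusters, at ratios of 1.304 to 1.557, and past the fold in 2 of them. Over all neutrophils the ratio was 1.48 with median ratio scaling, just short of the fold. Monocytes had 466 CPM in IL_27 and 293 CPM in control, and cDC1 had 297 and 175 CPM, so both were past the fold as well. As a mean over cells, however, monocytes had a ratio of 1.49. With classes taken from clusters, where cDC1 is mixed with cDC2, cDC1 had a ratio of 1.41. Fibroblasts had 208 CPM in IL_27 and 113 CPM in control, a ratio of 1.84 (1.46 to 2.32). Txnrd1 passed the fold in 7 of 14 classes, all higher in IL_27. In both macrophage classes, cDC2 and tumour cells its ratio was above 1 but short of the fold, at 1.18 to 1.29, and in mature dendritic cells it was 0.92.

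Srxn1 encodes sulfiredoxin, which restores overoxidised peroxiredoxins. Its sharpest difference was in cDC1, at 97.5 CPM in IL_27 and 29.2 CPM in control, a ratio of 3.34 (2.51 to 4.51). In neutrophils it had 118 CPM in IL_27 and 79.7 CPM in control, a ratio of 1.48 that stayed just short of the fold. C1q-led macrophages had 222 CPM in IL_27 and 162 CPM in control. The highest level was in mast cells or basophils, at 545 CPM in IL_27 and 255 CPM in control. Tumour cells were level, at 77.0 and 81.8 CPM.

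In cDC1, 6 of the 9 genes tested were past the fold higher (Slc7a11, Gclc, Gclm, Txnrd1, Srxn1 and Hmox1) and 0 lower, where the background was 10.4% higher and 7.55% lower. The class had 164 cells in IL_27 and 169 in control, and the median log2 ratio was 0.77 over the 9 genes and 0.04 over all genes tested. As a mean over cells the log2 ratio of Gclm was −0.0056.

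Prdx1 encodes peroxiredoxin 1, an abundant enzyme that removes hydrogen peroxide, and it passed the fold in 0 classes. Tumour cells, the highest class in IL_27, had 1186 CPM in IL_27 and 1245 CPM in control, a ratio of 0.95 (0.93 to 0.98). C1q-led macrophages had 1022 CPM in IL_27 and 875 CPM in control. Dcstamp/Mmp12-led macrophages, the highest class in control, had 1079 CPM in IL_27 and 1365 CPM in control, a ratio of 0.79 (0.76 to 0.82). By these sums the 2 macrophage classes lay on opposite sides of 1. In control, 32 of the 903 Dcstamp/Mmp12-led cells held at least as many of the 6282 UMIs as the rest together. After thinning, 48.8% of the IL_27 cells of that class had a Prdx1 UMI, against 45.1% of its control cells. Over the settings tried, the ratio there ran from 0.782 to 0.956. In C1q-led macrophages, however, it ran from 0.902 to 1.18 and so crossed 1.

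In neutrophils Prdx1 had 177 CPM in IL_27 and 125 CPM in control. That sum rested on a minority of the cells: the small clusters, which held 6.49% of IL_27 and 5.69% of control neutrophils, gave 995 of 1401 UMIs in IL_27 and 804 of 1638 in control. In the 5 main clusters the level was 59.9 CPM in IL_27 and 72.7 CPM in control, a ratio of 0.82 (0.73 to 0.93). The direction therefore turned with the choice of neutrophils. In the small clusters the summed C1q transcripts, markers of macrophages, were at 281 CPM in IL_27 and 397 CPM in control, against 57.4 and 64.8 CPM in the main clusters, and their part in the Prdx1 sum was not tested.

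Hmox1 encodes heme oxygenase 1, which splits heme into biliverdin, iron and carbon monoxide. It was highest in C1q-led macrophages, at 1135 CPM in IL_27 and 679 CPM in control, a ratio of 1.67 (1.55 to 1.80). After thinning, 45.1% of the IL_27 cells of this class had a Hmox1 UMI and 33.0% of the control cells, against 1.15% and 0.658% in other T cells. The median depth was 1629 UMIs in IL_27 and 1920.5 in control for these macrophages, and 3560 and 3922.5 for other T cells. Of the 9 genes tested there, 2 were past the fold higher (Gclc and Hmox1) and 0 lower, where 8.34% of all genes were higher and 8.7% lower. Dcstamp/Mmp12-led macrophages had 343 CPM in IL_27 and 220 CPM in control, a ratio of 1.56 (1.43 to 1.70), which was 1.39 with classes taken from clusters. In that class 2 of 9 were higher (Slc7a11 and Hmox1) and 0 lower, against a background of 5.93% higher and 8.09% lower.

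Monocytes had 257 CPM of Hmox1 in IL_27 and 74.3 CPM in control, a ratio of 3.47 (2.88 to 4.198). Few cells carried these sums, since 13 monocytes in IL_27 and 14 in control held at least as many UMIs as the rest together. After thinning, 12.99% (9.795 to 16.76) of IL_27 monocytes had a Hmox1 UMI, against 8.33% (5.296 to 12.35) in control, and these intervals overlapped. Over the settings tried, the monocyte ratio ran from 2.67 to 3.58. The cDC1 class had 66.6 CPM in IL_27 and 8.33 CPM in control, a ratio of 7.99 (4.88 to 13.9). At least as many of its IL_27 UMIs were in 5 cells as in the rest together. With classes taken from clusters, where cDC1 is mixed with cDC2, the ratio was 3.601. Tumour cells had 35.3 CPM in IL_27 and 17.2 CPM in control, a ratio of 2.05 (1.72 to 2.44), where 10 cells outweighed the rest in the same way. The thinned share of tumour cells with a Hmox1 UMI was nonetheless lower, at 1.90% in IL_27 and 4.46% in control, so no order is read from that share. Fibroblasts had 104 CPM in IL_27 and 26.7 CPM in control. Hmox1 was tested in 12 classes and was past the fold higher in 10 of them, the widest spread of any of the 10 genes. The exceptions were neutrophils and Treg, where it had 9.5 CPM in IL_27 and 19.9 CPM in control, from 17 and 32 UMIs.

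In neutrophils Hmox1 was at 267 CPM in IL_27 and 312 CPM in control, a ratio of 0.86 (0.81 to 0.90). The heat shock cluster held 15.1% of IL_27 neutrophils and 24.2% of control neutrophils. Within it Hmox1 was at 729 CPM in IL_27 and 892 CPM in control. In the other 4 clusters it was higher in IL_27, at ratios of 1.25, 1.53, 1.16 and 1.34, and the interval of 1.16 included 1. Over all neutrophils outside the heat shock cluster the log2 ratio was 0.37, so the direction turned with the choice of cells. When neutrophils were cut into 3 parts by their heat shock UMIs, the lowest part had 176 CPM in IL_27 and 120 CPM in control, and the highest part 561 and 597 CPM. The heat shock list took 0.818% of neutrophil UMIs in IL_27 and 1.12% in control, and its part in the Hmox1 difference was not tested.

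Nqo1 encodes a quinone reductase that is a classic NRF2 target in many tissues. It was scarce in every class, at no more than 4.28 CPM in IL_27 and 5.03 CPM in control. It could be tested only in neutrophils, at 4.03 CPM in IL_27 and 3.60 CPM in control, and tumour cells, at 3.43 and 5.03 CPM, and both intervals of the ratio included 1. No Nqo1 UMI was seen in C1q-led macrophages or cDC2 of either matrix. A count of 0 allows up to 2.24 CPM in IL_27 and 1.51 CPM in control in the first class, and up to 2.08 and 2.25 CPM in the other.

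Nfe2l2, the gene of NRF2 itself, was highest in neutrophils, at 485 CPM in IL_27 and 545 CPM in control, a ratio of 0.89 (0.86 to 0.93). It was thus slightly lower where Slc7a11, Gclc and Txnrd1 were higher. C1q-led macrophages had 236 CPM in IL_27 and 309 CPM in control, and mature dendritic cells had 164 and 225 CPM. Dcstamp/Mmp12-led macrophages had 314 CPM in IL_27 and 288 CPM in control, a ratio of 1.09 (1.01 to 1.18), and cDC1 had 324 and 285 CPM. It passed the fold higher in 1 of 14 classes, mast cells or basophils, where 1 IL_27 cell held most of the UMIs. It passed it lower in 2, other T cells, at 31.2 CPM in IL_27 and 65.5 CPM in control, and NK cells, at 26.0 and 54.1 CPM. The RNA level does not report the amount of NRF2 protein, which KEAP1 sets.

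Keap1, which encodes that adaptor, was lowest in neutrophils, at 6.93 CPM in IL_27 and 4.67 CPM in control, a ratio of 1.49 (1.01 to 2.17) that reached 1.595 among cells of at least 1000 UMIs. Its highest levels were 38.8 CPM in IL_27, in C1q-led macrophages, and 39.8 CPM in control, in CD8 T cells. It passed the fold in 0 classes. Tumour cells were level, at 35.9 CPM in IL_27 and 35.8 CPM in control.

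Over all classes there were 140 pairs of gene and class, of which 121 had enough UMIs to test, 40 were past the fold higher in IL_27 and 3 lower. The background of all genes tested ran, by class, from 5.29% to 15.3% higher and from 6.95% to 17.2% lower. In cDC2, 2 of 9 genes were higher (Slc7a11 and Hmox1) and 0 lower, against a background of 10.5% higher and 10.2% lower. In mature dendritic cells 3 of 9 were higher (Slc7a11, Gclc and Hmox1) and 0 lower, against 12.1% and 12%. There the log2 ratio of Gclc turned to −0.26 as a mean over cells, and that of Hmox1 to −0.52 when classes were taken from clusters. In CD8 T cells 2 of 9 were higher (Txnrd1 and Hmox1) and 0 lower, against 11.5% and 13.8%. Neither call held without the cells of the highest doublet scores, where Hmox1 had a ratio of 1.36, and that of Txnrd1 was 1.19 as a mean over cells. Tumour cells had 2 of 10 higher (Slc7a11 and Hmox1) and 0 lower, against 5.29% and 6.95%. Fibroblasts had 3 of 8 higher (Txnrd1, Srxn1 and Hmox1) and 0 lower, against 12.6% and 16.2%.

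The remaining classes showed less or rested on few cells. Treg had 0 of 9 higher and 1 lower (Hmox1), against a background of 10.1% higher and 10.9% lower, and its log2 ratio was 0.054 as a mean over cells. Other T cells had 2 of 8 higher (Slc7a11 and Srxn1) and 1 lower (Nfe2l2), against 13.1% and 12.7%, and the interval of the Srxn1 ratio included 1 and its log2 turned to −0.69 as a mean over cells. Slc7a11 there had a ratio of 1.15 with mixed cells kept, and Nfe2l2 0.85 with classes taken from clusters, both short of the fold. NK cells had 2 of 7 higher (Gclm and Txnrd1) and 1 lower (Nfe2l2), against 10.9% and 14.3%, and the interval of the Gclm ratio included 1. With 4 markers required the Gclm ratio was 1.25, and with classes taken from clusters that of Txnrd1 was 1.36. Mast cells or basophils had 5 of 6 higher (Gclc, Txnrd1, Srxn1, Hmox1 and Nfe2l2) and 0 lower, against 15.3% and 17.2%. In that class 1 IL_27 cell held 54.2% of the Hmox1 UMIs, so its ratios describe very few cells, and as means over cells Txnrd1 had a ratio of 1.87 and Srxn1 1.48.

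**Figure D5:**
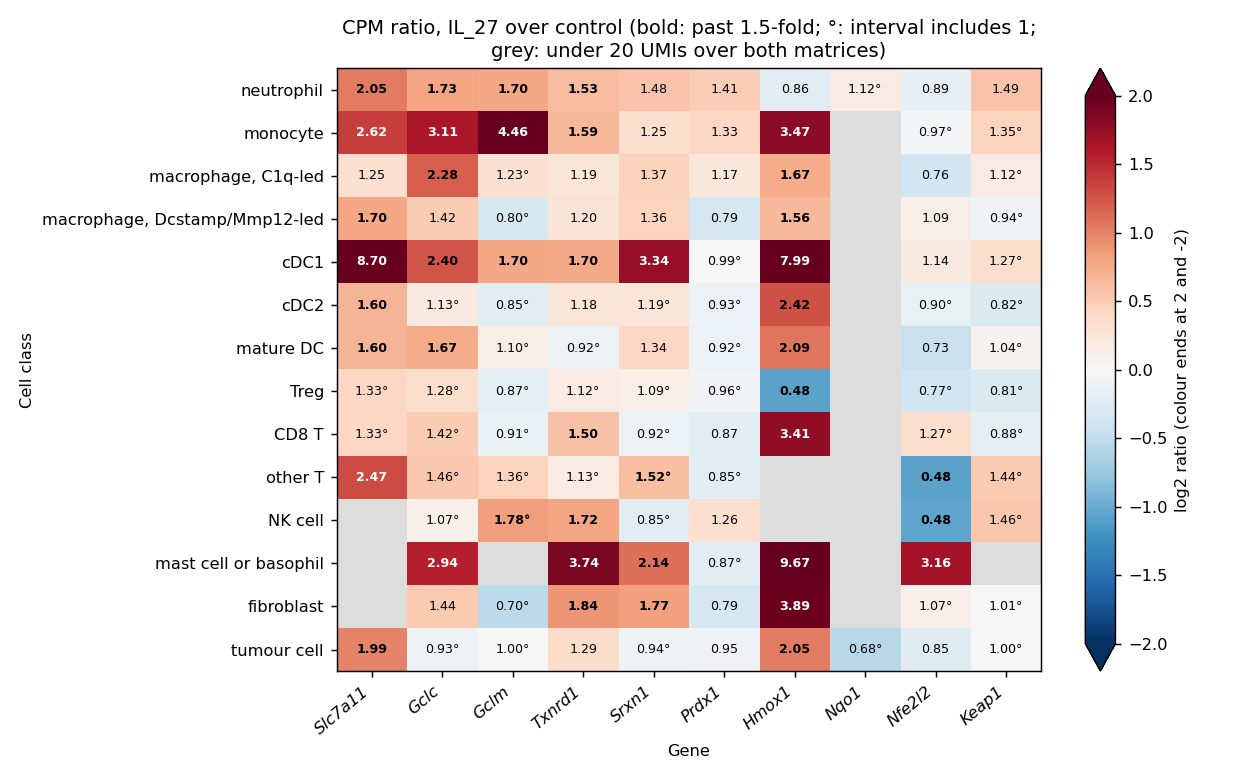
Log2 ratio of IL_27 over control (colour) for the 10 genes (columns) in the 14 classes (rows), with ratios past 1.5-fold in bold, a degree sign where the counting interval includes 1, and grey where fewer than 20 UMIs were counted. Of 121 pairs tested 40 were higher past the fold and 3 lower, with most of the higher ones in the columns of Hmox1, Slc7a11, Txnrd1 and Gclc. Among all genes tested, 5.29% to 15.3% were higher and 6.95% to 17.2% lower, depending on the class.

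Other genes of the same pathways are given for neutrophils by list. Mafg (a small MAF partner of NRF2), Osgin1, Cat, Pgd, Asns, Psat1, Ier2 and Hspa1b are named there to complete short counts, after their values were seen. Of 12 other genes of glutathione synthesis and use, 1 was past the fold higher (Gpx3, a secreted glutathione peroxidase, at 2.77 CPM in IL_27 and 1.38 CPM in control) and 0 lower. None of 10 other thioredoxin and peroxiredoxin genes and none of 8 other heme and iron genes passed it. Of 11 genes of quinone detoxification and NADPH supply, 2 were higher (Pgd and Ephx1) and 0 lower, and the interval of the Ephx1 ratio included 1.

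Of the superoxide and peroxide enzymes, Sod1, the cytosolic superoxide dismutase, had 41.0 CPM in IL_27 and 18.9 CPM in control, a ratio of 2.17. Cat, which encodes catalase, was also past the fold higher, and the interval of its ratio included 1. Of 10 NRF2 regulators 2 were higher and 0 lower, Mafg at 132 CPM in IL_27 and 75.1 CPM in control and Osgin1 at 140 and 84.2 CPM. Of 8 ferroptosis genes 1 was higher and 0 lower, Acsl4, an enzyme of polyunsaturated lipid synthesis, at 84.5 CPM in IL_27 and 44.8 CPM in control.

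Neither the amino acid response list nor the heat shock list had a gene past the fold higher in neutrophils. Of 10 ATF4 genes other than Slc7a11, 0 were higher and 3 lower (Atf5, Psat1 and Asns). Atf5, a transcription factor of the stress response, had 14.9 CPM in IL_27 and 26.6 CPM in control, and the interval of the Psat1 ratio included 1. Of 12 heat shock and dissociation genes 0 were higher and 3 lower (Fos, Ier2 and Hspa1b). Fos, an immediate early gene, had 288 CPM in IL_27 and 572 CPM in control. None of 15 housekeeping genes passed the fold. Within each matrix the summed ATF4 list was also lower in neutrophils with more Slc7a11, at 1572 CPM in IL_27 cells with no Slc7a11 UMI and 611 CPM in those with 3 or more, and at 1408 and 590 CPM in control cells. The summed heat shock list was lower in the same cells. Atf3, a gene of the ATF4 list, was among the 10 leading genes of the heat shock cluster. The part of single genes and of heat shock in the ATF4 sum was not tested.

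In monocytes 3 of 9 NRF2 regulators were higher and 0 lower (Mafg, Nfe2l1 and Btrc, named after their values were seen), and the interval of the Btrc ratio included 1. Sod1 there had a ratio of 2.06 and Atf3, a stress-induced factor of the ATF4 list, 1.95. The inducible heat shock gene Hspa1a was lower there, at a ratio of 0.39, as were Gpx3, at 0.451 with an interval that included 1, and Hmox2, the constitutive heme oxygenase, at 41.6 CPM in IL_27 and 84.2 CPM in control. In C1q-led macrophages the peroxiredoxin gene Prdx5 had 516 CPM in IL_27 and 849 CPM in control, while Osgin1, a regulator listed with NRF2, had a ratio of 2.33 and Tfrc, the transferrin receptor, 2.06. Txnrd2, the mitochondrial thioredoxin reductase, had a ratio of 0.359 there, from 8 UMIs in IL_27 and 33 in control, whereas Gpx3 had 1.91 and Hspa1a 1.79. Osgin1 was also past the fold in Dcstamp/Mmp12-led macrophages, at 1.85, and in cDC1, at 2.17. In the Dcstamp/Mmp12-led macrophages the other list genes of this size were Hspa1b at 2.45, Hspa1a at 2.36, Asns at 1.82, Phgdh at 0.468 and the carbonyl reductase gene Cbr3 at 0.405, and the intervals of Asns and Phgdh included 1. In cDC1 the ratio of Tfrc was 4.39, that of Phgdh, the first enzyme of serine synthesis, 2.37, that of Mafg 2.32, that of Sod1 2.31, and that of Asns, asparagine synthetase, 2.202.

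The pattern of each gene over the 14 classes was set beside that of 6110 other genes, as the Pearson correlation of log2 levels averaged over the matrices. The classes share library, depth and stray neutrophil RNA, so the values only describe likeness. Slc7a11, which spanned 609-fold over the classes, was most like Clec5a (r = 0.972), Cd14 (0.967) and Clec4n (0.967). The low end of that span is fibroblasts, with 9 Slc7a11 UMIs in IL_27 and 0 in control, so its size is uncertain. Hmox1, with a span of 125-fold, was most like Mfsd11 (0.927), Atp6v1a (0.926) and Rragc (0.925). Nfe2l2 was most like Zfp36 (0.955), Txnrd1 like Plekhm2 (0.924), Srxn1 like Atp6v1h (0.936), Prdx1 like Sdhc (0.910) and Gclc like Tgfbr1 (0.897). Among the 10 genes the closest pair was Txnrd1 with Nfe2l2, at 0.913, and the next was Slc7a11 with Txnrd1, at 0.850. Gclm, Keap1 and Nqo1 spanned less than 8-fold, so the genes most like them are not named.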

How the data were processed

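Single-cell RNA was read with a 10x 5′ kit per the labels' protocols. Per the submitters' processing notes, Cell Ranger 4.0, Seurat 3.2.0 and the mm10 genome were used. The deposited values are raw UMI counts per gene and cell, in 1 matrix per group, and the matrix header names Cell Ranger 4.0.0. From these counts, cells were dropped below 200 detected genes, below 500 UMIs or above a mitochondrial share of 10%. A marker counted as seen in a cell at 1 UMI or more and at least 200 CPM, and a class needed 3 markers. Cells in which another lineage reached 2/3 of the best marker share were left out as mixed, at 695 cells in IL_27 and 806 in control. Another 1189 and 977 cells had no class, and classes under 40 cells in either matrix were not described. Scrublet called 167 doublets in IL_27 and 0 in control, so it did not work in control, and only its scores were used, in an alternative. CPM intervals are exact Poisson, shares exact Clopper-Pearson and ratios conditional binomial. A ratio against 0 UMIs is not printed. Clusters (24, Leiden, resolution 1, on 2000 variable genes and 30 components) came from scanpy 1.11.5 on Python 3.11.15, numpy 2.4.6, scipy 1.17.1 and pandas 2.3.3. They were used within neutrophils because marker lists for neutrophil states did not separate the cells. The count for the list of superoxide and peroxide enzymes is not reported here. The counting was checked on simulated data. The members and the gene lists were chosen with earlier results of these data known, and the class scoring rule was set after the data were seen. Apart from the 10 genes, the list genes named in neutrophils, monocytes, both macrophage classes and cDC1 passed the fold and were among the 6 largest ratios of the class, beside those said to be named afterwards, and like-pattern genes are the closest 3 among genes reaching 50 CPM in a class.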

Additional observations from a re-analysis of the deposited data

Results flagged for a closer look

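For 3 genes the counting intervals of the ratio lay on opposite sides of 1 in different classes. For each gene the class with the most UMIs on either side of 1 is given. The difference between the classes was not tested in any of them. Hmox1 had a log2 ratio of IL_27 over control of 0.74 in C1q-led macrophages and −0.22 in neutrophils. Nfe2l2 had 0.13 in Dcstamp/Mmp12-led macrophages and −0.17 over all neutrophils. Within the neutrophil clusters its ratio ran from 0.79 to 1.10. Prdx1 had 0.22 in C1q-led macrophages and −0.070 in tumour cells. Over the settings tried, the ratio of Prdx1 in C1q-led macrophages ran from 0.902 to 1.18. That of Nfe2l2 in Dcstamp/Mmp12-led macrophages ran from 0.998 to 1.10, so neither kept its side of 1 throughout.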

How the results depend on the processing

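No paired analysis was possible because each group was deposited as 1 matrix, and for the same reason no replicate could be left out. The log2 ratio of Slc7a11 in neutrophils, 1.04, was 0.99 with median ratio scaling, 1.07 as a mean over cells, 1.00 outside the heat shock cluster and 1.07 in the 5 main clusters. The last 2 sets were chosen after seeing the data. That of Hmox1 in neutrophils, −0.22, stayed between −0.27 and −0.21 over the 9 other settings and was 0.37 outside the heat shock cluster. As means over cells, Gclm in cDC1 turned to −0.0056, Gclc in mature dendritic cells to −0.26, Hmox1 in Treg to 0.054 and Srxn1 in other T cells to −0.69. Srxn1 in other T cells was −0.034 without the cells of the highest doublet scores, and Hmox1 in mature dendritic cells −0.52 by cluster classes. The cause was not tested. With no UMI minimum 7 pairs were lower, against 3. Over those settings and 2 other UMI minimums 36 to 46 pairs were higher, against 40. Of 43 pairs past the fold, 43 were kept with no mitochondrial limit, 33 as means over cells, and 31 of the 41 that could be compared by cluster classes. The number of genes higher in neutrophils ran from 3 to 6. Depth limits Nqo1, which had too few UMIs in 12 of the 14 classes, and in mast cells or basophils the number of cells limits every ratio.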

Other observations

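Sod1, the cytosolic superoxide dismutase, was past the fold higher in IL_27 in 13 of the 14 classes, with a ratio of 1.37 to 2.56 over the classes. It was singled out after its values were seen. Acsl4, likewise chosen afterwards, was past the fold higher in 9 of 14 classes. Hmox2, the constitutive heme oxygenase, was past the fold lower in 7 of 14 classes, while Hmox1 was higher in 10 of the 12 where it was tested. The inducible heat shock genes took different directions by class. Hspa1b had a ratio of 4.197 in mature dendritic cells, 4.79 in cDC2 and 2.45 in Dcstamp/Mmp12-led macrophages, at 49.8 CPM in IL_27 and 11.9 CPM in control in the first of these. In Treg it had 5.03 CPM in IL_27 and 28.7 CPM in control, in CD8 T cells 5.63 and 60.6 CPM, and in NK cells 5.90 and 77.8 CPM.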
